A study of Oryza sativa with 6 samples.

Results

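The entries described here are the shortest sequences that the authors matched to miRNAs of other plants: names that begin with MIR, a length of 18 or 19 nt and a total of at least 5 reads over the 6 libraries. There were 63 such entries, with 61 distinct sequences, among the 410 matches of 18 or 19 nt, the 739 other-plant matches of any length and the 1898 entries of the whole table. The read total chose the members, so their abundance is a description, and 347 matches of these lengths with 4 reads or fewer stayed outside, 12 of them with exactly 4 reads. Just inside the threshold were 9 entries with 5 reads, and none of these 21 borderline entries ended in CCA. The members were then separated by their last 3 bases into 9 that end in CCA (8 of 18 nt and 1 of 19 nt) and 54 with another end.

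The libraries came from rice (Oryza sativa) of 2 lines, sampled at 3 times of feeding by the brown planthopper (BPH), a sap-sucking insect that feeds on rice. P15 is the resistant introgression line that carries BPH15, and PC is 9311, the susceptible recipient line without it. Libraries P15-0, P15-6 and P15-48, and PC-0, PC-6 and PC-48, were named by the hours of infestation, with uninfested plants at 0 h. The labels give leaf sheaths of plants 3 weeks old at the 4-leaf stage, whereas the methods of the study name younger plants and stems, and a table of small RNAs holds no mRNA markers by which the tissue could be checked. Each library pools the tissue of many plants and each condition has 1 library, so every difference between a pair of libraries compares those libraries and not the conditions. In such bulk samples, fewer cells of a type and less RNA per cell cannot be told apart.

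Plant cells add CCA to the 3′ end of every mature tRNA, because tRNA genes do not encode these bases, and the amino acid is then attached to the last A. Fragments cut from the 3′ end of a mature tRNA therefore end in CCA, and small RNA libraries of plants commonly hold them beside miRNAs. A plant miRNA, by contrast, is usually cut to a defined length by DCL1, guides an Argonaute protein to a matching mRNA, and carries no such added end. CCA at the end of a sequence is thus a feature of letters alone, and it does not show by itself from which precursor a read came.

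The 9 entries that end in CCA are printed 5′ to 3′, in the DNA letters of the deposited table and with the last 3 bases in capitals, since the comparison turns on this end:
MIR894-x: tttcacgtcgggttcaCCA
MIR5139-x: aacctggctctgataCCA
MIR1511-y: aacctggctctgataCCA
MIR8155-y: aacctggctctgataCCA
MIR8175-y: tccccggcaacggcgCCA
MIR5054-y: tccccacggacggcgCCA
MIR5072-x: tccccagtggagtcgCCA
MIR5059-x: tcctgggcagcaacaCCA
MIR8016-y: ttctgaatggaagggCCA

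MIR5139-x, MIR1511-y and MIR8155-y are letter for letter the same sequence, so the 9 entries hold 7 distinct sequences. Their 2491, 2297 and 2280 reads over the 6 libraries are nearly the same reads listed 3 times, and MIR8155-y stands for this sequence below. MIR8175-y and MIR5054-y begin with the same bases and share their last 9 bases (ACGGCGCCA), but they are different sequences. Among the 7 distinct sequences, 6 began with T and 1 with A, and their GC content had a median of 61.1% and a maximum of 77.8%, against 42.1% and 84.2% in the 54 members with another end.

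The sequence shared by MIR5139-x, MIR1511-y and MIR8155-y ends like the initiator methionine tRNA of plants, which starts translation and also primes reverse transcription of many retrotransposons. Its last 12 bases occur in 11 of the 1898 entries (0.58%), at the very end in these 3 and further inside in the other 8. Among those 8 are the MIR845 entries, named for a family that in Arabidopsis matches retrotransposon primer binding sites, and osa-miR1863a, a 24-nt rice miRNA. The shared run is in capitals, to show where it lies in each sequence:
MIR8155-y: aacctgGCTCTGATACCA
MIR845-x: ctgGCTCTGATACCAattgtagg
MIR845-y: tctaGCTCTGATACCAttt
osa-miR1863a: aGCTCTGATACCAtgttagattag

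MIR845-y is itself a member, with 15 reads, and MIR845-x and osa-miR1863a had 92 and 384 reads over the 6 libraries. The form that stops at CCA thus had more reads than either of these, which continue past it.

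Reads that end in CCA made up most of the reads of these short matches, but not of the other classes. The end was carried by 9 of 63 members (14.3%) and by 17826 of their 21015 reads (84.8%). Counting the repeated sequence a single time leaves 13249 of 16438 reads. With the same minimum of 5 reads, 3 of 212 other-plant matches of 20 nt or longer (1.42%) ended in CCA and held 1948 reads, or 2.86%. Among rice miRNAs of that length 11 of 405 did (2.72%), with 8843 reads, or 0.0294% of the reads of that class. Among predicted rice miRNAs 5 of 642 did (0.779%), with 99 reads, or 0.139%. Without the minimum, the share of entries was 3.17% in the matches of 18 or 19 nt (13 of 410), close to the 2.81% of rice miRNAs of 20 nt or longer (13 of 463), whereas the shares of reads were 82.9% and 0.0294%. Below the threshold of 5 reads, 4 more entries of 18 or 19 nt ended in CCA, each with 1 or 2 reads.

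Members that end in CCA were also the most abundant ones, holding the 5 highest totals of all 63. MIR894-x, a name first given to a sequence of the moss Physcomitrella, had 8362 reads, MIR8175-y 1585, MIR5054-y 484, MIR5072-x 189, MIR5059-x 95 and MIR8016-y 43. MIR5139-x, MIR1511-y and MIR8155-y count separately among the 5 highest totals, although they are the same sequence. The median total was 1585 reads for the 9 entries, with these copies counted, and 13.5 for the 54 others. Among these others, MIR477-x led with 727 reads, and 32 had fewer than 20.

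**Figure D1:**
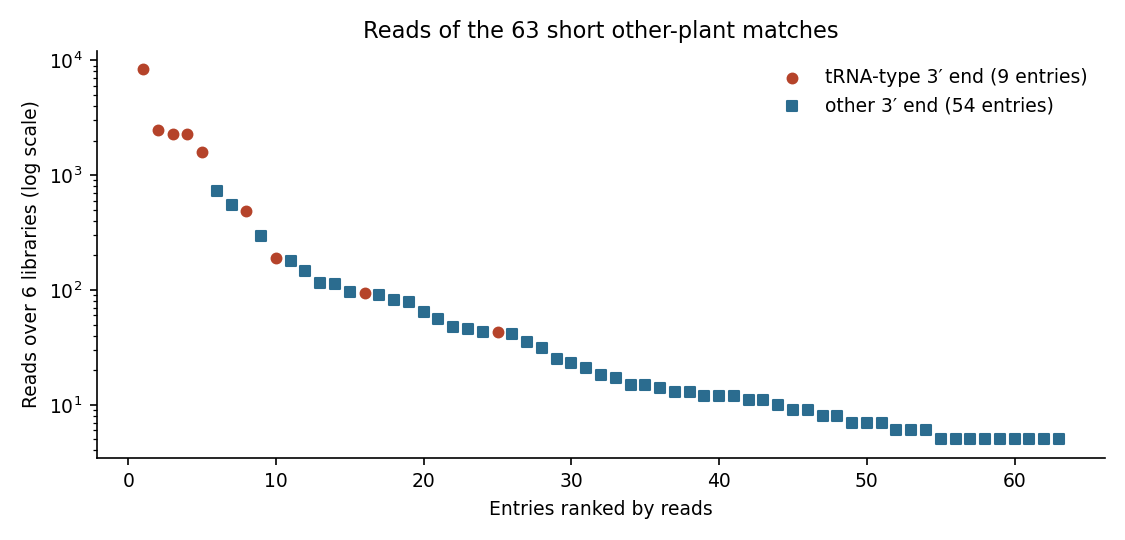
Total reads over 6 libraries (log scale) of each of the 63 entries, in order of abundance, with circles for the 9 entries that end in CCA (tRNA-type 3′ end) and squares for the 54 others. The 5 most abundant entries all end in CCA, with 1585 to 8362 reads, and most of the others lie below 20 reads. MIR5139-x, MIR1511-y and MIR8155-y are the same sequence and are drawn separately.

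Levels are given as TPM, read counts scaled to a total for each library. These library totals are the divisors behind the deposited TPM, computed back from counts and TPM. They are far smaller than the clean reads that the study reported, and which reads they count is not stated. The library totals were 1078716 (P15-48) to 1644065 (P15-6), so that 3 reads, the upper limit that a count of 0 allows, are 1.82 to 2.78 TPM. Intervals in parentheses are exact 95% counting intervals of the TPM ratio, and like the 3-read limit they cover counting error only. A member was called in a pair of libraries at a log2 fold change of at least 1 in either direction and an unadjusted P under 0.05, by the exact test of edgeR with no dispersion between libraries. P15-6 stood apart in scaling: TMM gave it a relative size of 0.80, against 0.986 to 1.10 for the other libraries, and the median log2 fold change of all entries with enough reads was -0.33 in P15-6/PC-6 and -0.37 in P15-6/P15-0. Ratios that involve P15-6 are therefore followed by their range over the 3 other scalings (TMM, median-of-ratios and total clean reads).

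MIR894-x was at 1468, 1012 and 953.9 TPM in P15 at 0, 6 and 48 h, and at 1031, 697.5 and 1023 TPM in PC at these times. It was highest in P15-0 and lowest in PC-6, and P15 lay above PC at 0 and 6 h but not at 48 h. The ratio of P15 to PC was 1.42 (1.33 to 1.52) at 0 h, 1.45 (1.34 to 1.58) at 6 h and 0.932 (0.858 to 1.01) at 48 h. With the other scalings it was 1.83 to 1.90 at 6 h. Within P15 it was 0.689 (0.646 to 0.735) times the 0 h level at 6 h and 0.650 (0.603 to 0.701) times at 48 h, but at 6 h it was 0.849 to 0.941 times with the other scalings. Within PC these ratios were 0.676 (0.621 to 0.737) and 0.992 (0.919 to 1.07), so at 48 h the PC library was within counting error of its level at 0 h and the P15 library was below it.

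The shared sequence, as MIR8155-y, was at 420, 296.2 and 219.7 TPM in P15 and at 284.2, 201 and 250.9 TPM in PC at 0, 6 and 48 h. It had the same order of libraries at its ends as MIR894-x, with P15-0 highest and PC-6 lowest, except that P15-48 was lowest with total clean reads. P15 was 1.48 (1.30 to 1.68) times PC at 0 h, 1.47 (1.26 to 1.72) times at 6 h and 0.876 (0.737 to 1.04) times at 48 h, and 1.86 to 1.93 times at 6 h with the other scalings. Its reads per read of MIR894-x, a ratio that no scaling changes, stayed between 0.230 (P15-48) and 0.293 (P15-6) in the 6 libraries.

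The study picked MIR8155-y and MIR8175-y for stem-loop RT-PCR, and of these it reported only MIR8175-y as similar to its sequencing. MIR8175-y had another course than MIR8155-y. Its level was 263, 135 and 218.8 TPM in P15 at 0, 6 and 48 h, and 151.8, 187.5 and 243.1 TPM in PC. P15 thus had its lowest level at 6 h, whereas PC had its lowest level before feeding and its highest at 48 h. P15 was 1.73 (1.46 to 2.06) times PC at 0 h, 0.720 (0.597 to 0.869) times at 6 h and 0.900 (0.757 to 1.07) times at 48 h, and 0.911 to 0.942 times at 6 h with the other scalings. In P15 the level was 0.513 (0.433 to 0.608) times the 0 h level at 6 h and 0.832 (0.704 to 0.982) times at 48 h. In PC it was 1.24 (1.02 to 1.5) times at 6 h and 1.60 (1.34 to 1.92) times at 48 h. With the other scalings P15-6 remained the lowest of the P15 libraries, at 0.632 to 0.701 times P15-0, but PC-0 was the lowest of all.

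MIR5054-y, which shares its 3′ end, was at 75.73, 46.23 and 55.62 TPM in P15 and at 49.85, 62.76 and 73.25 TPM in PC. P15-0 was again the highest library and P15-6 the lowest, but P15-6 was lowest only with the library totals. P15/PC was 1.52 (1.11 to 2.09) at 0 h, 0.737 (0.530 to 1.02) at 6 h and 0.759 (0.540 to 1.06) at 48 h, and 0.931 to 0.964 at 6 h with the other scalings. Its reads per read of MIR8175-y lay between 0.254 (P15-48) and 0.342 (P15-6), with overlapping intervals in all 6 libraries. Set against MIR894-x, MIR8175-y had 0.179 (0.160 to 0.200), 0.133 (0.116 to 0.154) and 0.229 (0.198 to 0.264) reads per read in P15 at 0, 6 and 48 h, and 0.147 (0.126 to 0.171), 0.269 (0.232 to 0.311) and 0.238 (0.209 to 0.269) in PC. At 6 h these intervals of P15 and PC do not overlap, so both sequences did not move alike within the libraries. This ratio was chosen after the levels were seen.

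MIR5072-x was at 28.05, 14.6 and 37.08 TPM in P15 and at 19.35, 23.04 and 23.38 TPM in PC, and all 3 of its P15/PC ratios had intervals that include 1. Within P15 it was 0.52 (0.3 to 0.885) times the 0 h level at 6 h, or 0.641 to 0.711 times with the other scalings. At 48 h in P15 and at both fed times in PC, MIR5072-x had intervals that include 1. It differs from the 22-nt rice miRNA osa-miR5072, which also ends in CCA, by the substitution C8T (the rice base, the position counted from the 5′ end of the member, the base of the member), and lacks its first bases:
MIR5072-x: tccccagtggagtcgCCA
osa-miR5072: cgattccccagcggagtcgCCA
MIR5059-x, at 7.91 (P15-6) to 17.9 TPM (PC-48), had intervals that include 1 in all 7 pairs with the library totals. With TMM its PC-48/PC-0 ratio was 2.07 and was called, at an unadjusted P of 0.047 by the exact test.

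**Figure D2:**
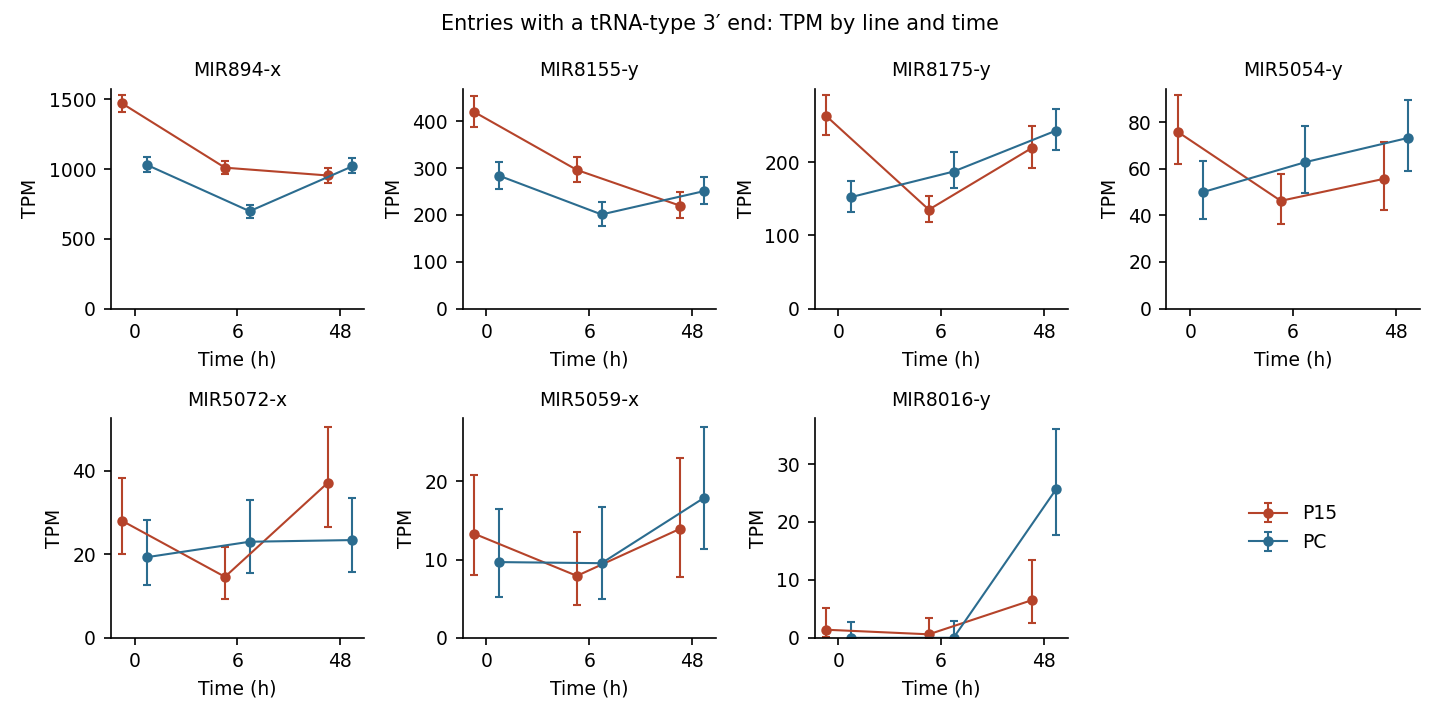
TPM (vertical axis, from 0) of the 7 distinct sequences that end in CCA at 0, 6 and 48 h in P15 (red, left point of each pair) and PC (blue, right), 1 library per point with exact 95% counting intervals, and MIR8155-y standing for its 2 copies as well. MIR894-x and MIR8155-y are highest in P15-0 and lowest in PC-6 (MIR8155-y in P15-48 with total clean reads), MIR8175-y and MIR5054-y are lowest in P15-6 with these library totals (not with the other scalings), and MIR8016-y has its reads almost entirely at 48 h.

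MIR8016-y was the member with the most uneven spread. It had 2, 1 and 7 reads in P15 at 0, 6 and 48 h and 0, 0 and 33 reads in PC, so that 40 of its 43 reads were in the 48 h libraries. PC-48 alone, at 25.7 TPM, stood far above the rest. For PC-48/PC-0 the lower limit of the exact interval was 8.85, and the ratio was 11.5 with PC-0 set to 3 reads. P15-48/PC-48 was 0.252 (0.0942 to 0.580). P15-48/P15-0 was 4.63 with an interval of 0.881 to 45.6.

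Of the 5 distinct CCA sequences with at least 100 reads, 4 were highest in P15-0 and MIR5072-x in P15-48. With TMM only 2 were, and the highest library of MIR8175-y and MIR5054-y was PC-48 instead. Summed, the 7 distinct sequences made up 2305, 1536 and 1528 TPM in P15 at 0, 6 and 48 h, and 1581, 1200 and 1678 TPM in PC. With every entry counted, the 9 summed to 3145, 2133 and 1967 TPM in P15 and to 2153, 1603 and 2183 TPM in PC. P15-0 had the largest sum and PC-6 the smallest by either count.

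The ratio of the sums over the distinct sequences was 1.46 (1.38 to 1.54) for P15-0/PC-0, 1.28 (1.20 to 1.37) for P15-6/PC-6 and 0.911 (0.854 to 0.971) for P15-48/PC-48. In P15 the sum fed for 6 h was 0.667 (0.633 to 0.702) and that fed for 48 h 0.663 (0.624 to 0.703) times the sum at 0 h. In PC these ratios were 0.759 (0.710 to 0.811) and 1.06 (0.999 to 1.13). With the other scalings, P15-6/PC-6 was 1.62 to 1.68 and P15-6/P15-0 0.821 to 0.910, so that the higher sum of P15 at 6 h and the lower sum of P15 at 6 h than at 0 h kept their directions. PC-48/PC-0 had no fixed direction, at 0.981 with total clean reads and 1.18 with TMM.

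**Figure D3:**
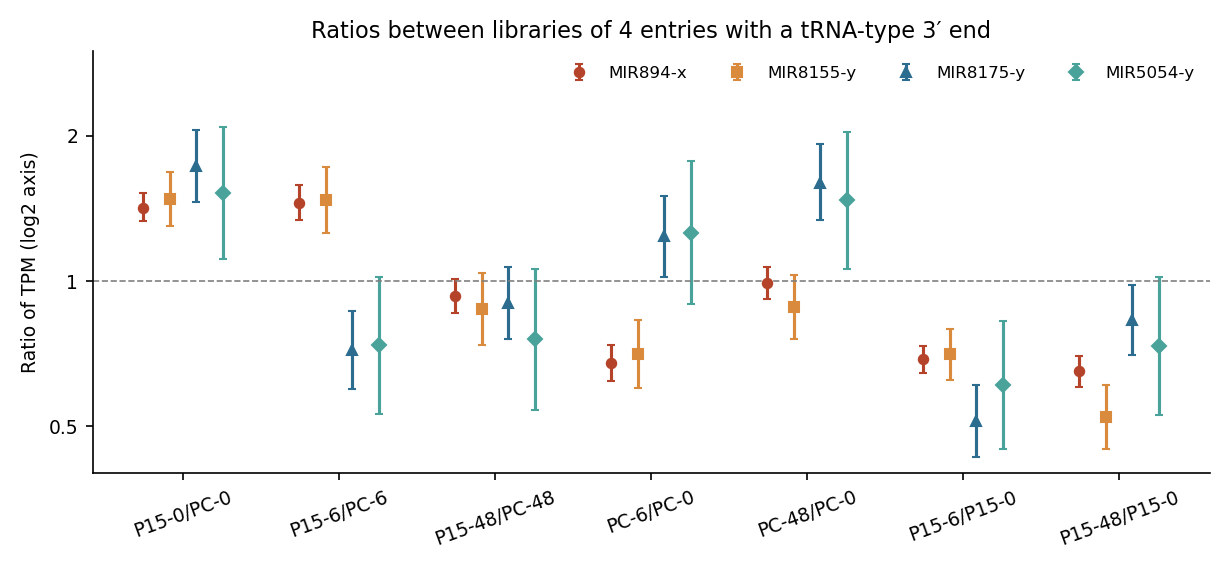
Ratio of TPM (log2 axis, dashed line at 1) of 4 entries that end in CCA in each of 7 pairs of libraries, with exact 95% counting intervals. All 4 lie above 1 in P15-0/PC-0, but in P15-6/PC-6 MIR894-x and MIR8155-y lie at 1.45 and 1.47 (1.83 to 1.93 with the other scalings) and MIR8175-y and MIR5054-y at 0.720 and 0.737 (0.911 to 0.964), with an interval that includes 1 for MIR5054-y.

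The 54 members with another end did not follow this course. Their sum was 417.2, 319.9 and 405.1 TPM in P15 and 396.6, 471.9 and 392.7 TPM in PC, highest in PC-6 where the CCA sum was lowest. That peak rests on MIR477-x, without which the sum was 320.5, 242.1 and 336.5 TPM in P15 and 296.2, 321.8 and 343.6 TPM in PC, highest in PC-48. P15/PC was 1.05 (0.934 to 1.18) at 0 h, 0.678 (0.602 to 0.764) at 6 h and 1.03 (0.905 to 1.17) at 48 h, and 0.857 to 0.887 at 6 h with the other scalings. Without MIR477-x, P15-6/PC-6 was 0.752 (0.654 to 0.866), and 0.951 to 0.984 with the other scalings. The ratio of CCA reads to other reads, which does not depend on scaling, was 5.52, 4.80 and 3.77 in P15 at 0, 6 and 48 h, and 3.99, 2.54 and 4.27 in PC, with each distinct sequence taken a single time. As a share of all member reads, CCA sequences held 84.7% (exact binomial interval 83.5 to 85.8) in P15-0 and 82.8% (81.4 to 84.1) in P15-6, against 79.9% (78.4 to 81.5) in PC-0 and 71.8% (69.8 to 73.7) in PC-6. At 48 h the shares were 79.0% (77.2 to 80.8) in P15 and 81.0% (79.5 to 82.5) in PC, with overlapping intervals.

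**Figure D4:**
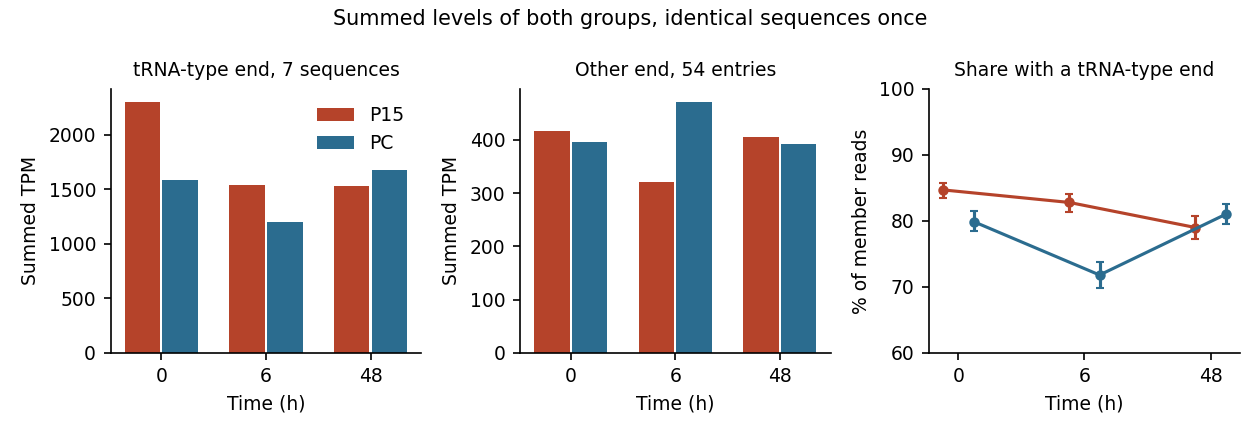
Summed TPM of the 7 distinct sequences that end in CCA (left bars, tRNA-type end), summed TPM of the 54 other members (middle bars) and the percent of member reads that end in CCA (right, axis from 60 to 100, exact 95% binomial intervals), in P15 (red, left) and PC (blue, right) at 0, 6 and 48 h. The CCA sum is largest in P15-0 at 2305 TPM, the other sum is largest in PC-6 at 471.9 TPM (321.8 TPM without MIR477-x), and the share is lowest in PC-6 at 71.8%.

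Many of the abundant members with another end are near copies of rice miRNAs of the same number. No member lies whole inside a rice entry of the table, but 7 of the 54 share an unbroken run of 17 bases with one, from their own first base, and depart from it only in the last 1 or 2 bases. None of the 9 CCA members shared a run of 15 bases or more with a rice entry, and at 12 bases or more 4 of the 9 and 14 of the 54 did. MIR894-x shared an unbroken run of 14 bases, CCA included, with osa-miR5077. Over all its 19 bases, MIR894-x departed from osa-miR5077 only by the 2 substitutions G1T and G5A, counted as for MIR5072-x. The 4 leading cases are printed with their departing bases in capitals, each above its rice counterpart:
MIR160-x: tgcctggctccctgtatTT
osa-miR160c-5p: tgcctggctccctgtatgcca
MIR393-y: tcagtgcaatccctttgTT
osa-miR393b-3p: tcagtgcaatccctttggaat
MIR3981-y: ttaggatacgtctcatcT
osa-miR3981-3p: agtattaggatacgtctcatc
MIR2873-y: tgaagttgagtttggacT
osa-miR2873c: caaatgaagttgagtttggac

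In MIR160-x the departing bases are G18T and C19T, and in MIR393-y G18T and A19T, counted as above. In MIR3981-y and MIR2873-y the last T lies past the end of the rice sequence. MIR5144-x (A18T, G19T), MIR2863-y (G18T, G19C) and MIR6249-x (C18A) complete the 7. Across all 54, 25 ended in T, 13 of them in CT and 8 in TT.

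How far the short form followed the rice entry differed between cases. miR160 targets auxin response factors, and MIR160-x was at 77.1, 51.7 and 104.8 TPM in P15 and at 48.4, 72.3 and 64.7 TPM in PC at 0, 6 and 48 h. P15/PC was 1.59 (1.16 to 2.20), 0.715 (0.526 to 0.972) and 1.62 (1.21 to 2.18) at these times, and 0.904 to 0.936 at 6 h with the other scalings. It had 0.232 (PC-0) to 0.350 (P15-48) reads per read of osa-miR160c-5p. MIR393-y, of a family whose 5′ strand targets the auxin receptors TIR1 and AFB, had 0.0115 to 0.0183 reads per read of osa-miR393b-3p, at 14.8 to 24.9 TPM. MIR2873-y outnumbered osa-miR2873c, with 113 and 11 reads over the 6 libraries.

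MIR3981-y was at 16.1, 14.0 and 19.5 TPM in P15 and at 20.1, 23.0 and 42.1 TPM in PC, below PC at every time and highest in PC-48. P15/PC was 0.803 (0.44 to 1.45) at 0 h and 0.607 (0.336 to 1.09) at 6 h, or 0.768 to 0.794 at 6 h with the other scalings. Both intervals include 1. P15-48/PC-48 was 0.463 (0.265 to 0.779) and PC-48/PC-0 was 2.09 (1.30 to 3.46). Its reads per read of osa-miR3981-3p were 1.59 (1.02 to 2.52) in PC-48 and 0.562 (0.337 to 0.920) in PC-0. In the remaining libraries this ratio lay between 0.793 and 1.21.

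MIR477-x, the most abundant member with another end, was at 96.8, 77.9 and 68.6 TPM in P15 and at 100.5, 150.2 and 49.1 TPM in PC. PC spanned the whole range, highest of all at 6 h and lowest at 48 h, with P15 between. P15-6/PC-6 was 0.519 (0.411 to 0.652), and 0.656 to 0.678 with the other scalings, while PC-48/PC-0 was 0.489 (0.356 to 0.664). MIR159-x carries the number of the miR159 family but is close to the reverse complement of osa-miR159b, so it is not the strand that targets GAMYB factors. MIR159-x was at 39.3, 21.3 and 39.9 TPM in P15 and at 42.4, 44.5 and 38.2 TPM in PC. P15-6 was its only low library, at 0.479 (0.304 to 0.743) times PC-6, or 0.605 to 0.626 times with the other scalings.

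MIR6300-y was lower at both fed times in both lines, with 23, 3 and 7 reads in P15 and 18, 6 and 7 reads in PC at 0, 6 and 48 h. P15-6/P15-0 was 0.113 (0.0217 to 0.374), or 0.139 to 0.155 with the other scalings, P15-48/P15-0 0.402 (0.146 to 0.969), PC-6/PC-0 0.356 (0.116 to 0.936) and PC-48/PC-0 0.407 (0.144 to 1.02). MIR5568-x and MIR5568-y, with 114 and 31 reads, are complementary to each other over 16 bases, here in capitals:
MIR5568-x: TTATAAGACGTTTTGAct
MIR5568-y: TCAAAACGTCTTATAAct

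**Figure D5:**
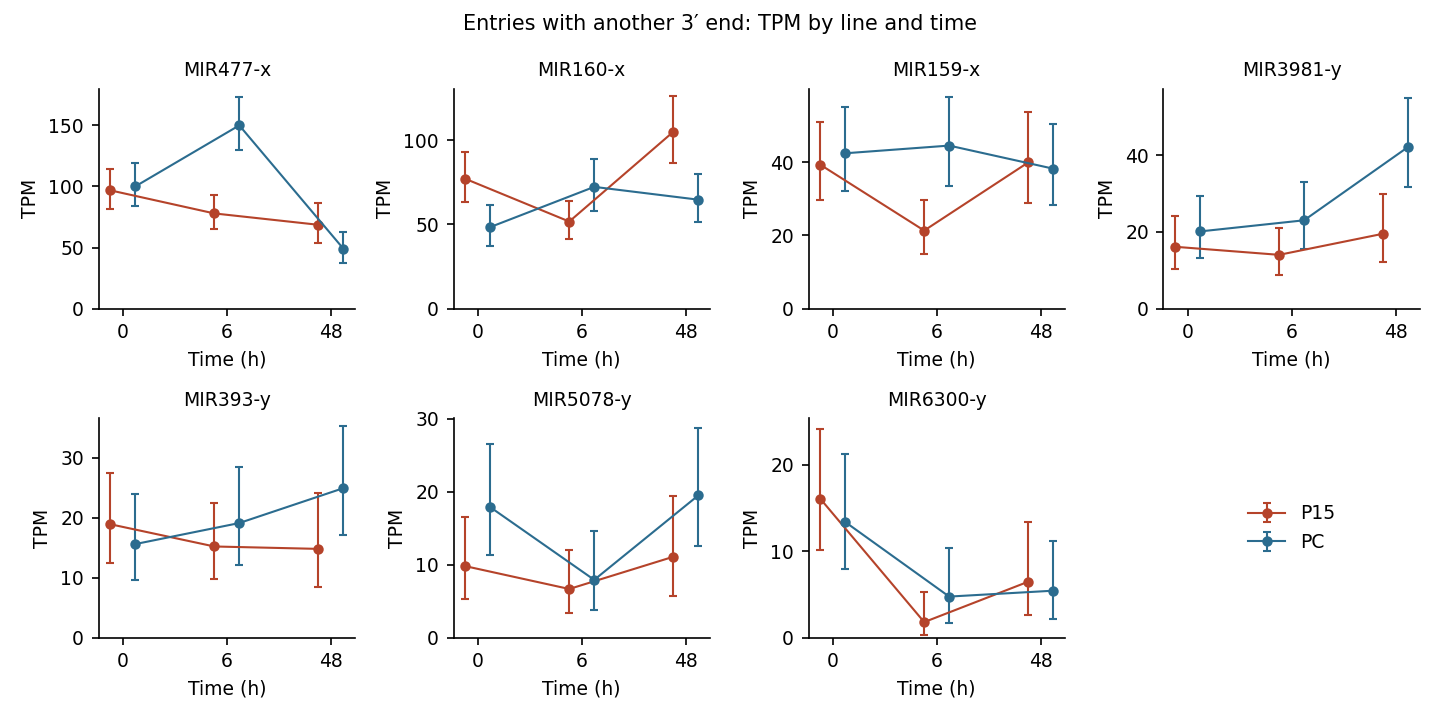
TPM (vertical axis, from 0) of 7 members with another 3′ end at 0, 6 and 48 h in P15 (red, left point of each pair) and PC (blue, right), 1 library per point with exact 95% counting intervals. MIR477-x is highest in PC-6, MIR3981-y is highest in PC-48, MIR159-x has its low value in P15-6, and MIR6300-y is lower at 6 and 48 h than at 0 h in both lines.

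By the exact test with the library totals, few members were called in any pair, and MIR8016-y was the only CCA member among them. In P15-0/PC-0 MIR5384-y was called higher, with 13 and 4 reads, where 3.23% of all tested entries of the table with at least 5 reads were called. In P15-6/PC-6 MIR159-x was called lower (background 5.61%), and in P15-48/PC-48 MIR3981-y, MIR8016-y and MIR8704-y were lower (background 3.72%). In PC-6/PC-0 MIR5078-y and MIR6300-y were lower (background 3.79%). In PC-48/PC-0 MIR3981-y, MIR8016-y and MIR8704-y were higher and MIR477-x and MIR6300-y lower (background 6.19%). In P15-6/P15-0 only MIR6300-y was lower (background 6.29%), and in P15-48/P15-0 MIR6300-y and MIR1861-x were lower and MIR1122-y higher (background 4.67%). As shares of the members tested, these were 1.61% in P15-0/PC-0, 1.69% in P15-6/PC-6, 4.76% in P15-48/PC-48, 3.28% in PC-6/PC-0, 8.2% in PC-48/PC-0, 1.75% in P15-6/P15-0 and 5.45% in P15-48/P15-0, below the background in 4 of the 7 pairs. MIR5384-y, MIR8704-y, MIR1861-x and MIR1122-y had at most 13 reads in either library. Some called ratios had counting intervals that include 1. These were MIR5384-y in P15-0/PC-0 (0.946 to 12.9), MIR8704-y in P15-48/PC-48 (upper limit 1.01) and MIR6300-y in PC-48/PC-0 (0.144 to 1.02). MIR894-x, MIR8155-y, MIR8175-y and MIR5054-y were called in no pair with the library totals. With total clean reads, MIR894-x and MIR8155-y were called lower in P15-48/P15-0. With TMM, MIR5059-x was called higher in PC-48/PC-0 and MIR8016-y higher in P15-48/P15-0.

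Across all 6 libraries, an additive fit of line and time by the quasi-likelihood test of edgeR tested 537 entries, among them 8 CCA members and 14 others. No member passed an adjusted p under 0.05 for the line (background 2.98%), for 6 h against 0 h (0.186%) or for 48 h against 0 h (2.05%). At an unadjusted p under 0.05 there were 1, 2 and 3 members, and DESeq2 called 0 in each. The nearest was MIR6300-y at 6 h, with a log2 fold change of -1.93 ± 0.53 (SE) and an edgeR adjusted p of 0.128, lower in 2 of 2 lines. For the line, MIR3981-y had a log2 fold change of -0.65 ± 0.28 and an edgeR adjusted p of 0.352, lower in P15 at 3 of 3 times. MIR894-x had 0.41 ± 0.22 and an edgeR adjusted p of 0.439, higher in P15 at 2 of 3 times. MIR8016-y did not pass the filter on low counts. Without PC-48 or without P15-48, MIR6300-y passed at 6 h, with edgeR adjusted p of 0.03 and 0.0288. Without PC-6, MIR3981-y passed at 48 h. MIR8016-y passed at 48 h without PC-6, P15-0 or P15-48, but 33 of its 43 reads are in PC-48. Those calls rest on that 1 library and do not speak for both lines. The error of the fit draws on all 537 tested entries and not on a single member alone. Within a member, it reflects how far P15 and PC differ in their course over time, on 2 residual degrees of freedom.

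That course was compared directly as the log2 fold change from 0 h in P15 minus that in PC, by the likelihood ratio test of edgeR with an error from the reads of 4 libraries alone. At 6 h MIR8175-y differed by -1.27 ± 0.18 (counting SE), with the level in P15 0.96 below and in PC 0.30 above its 0 h value on the log2 scale, and MIR5054-y, MIR160-x and MIR477-x also passed (background 8.93%). With TMM these 3 lost the call, with edgeR adjusted p of 0.217, 0.0899 and 0.174, and MIR8175-y kept it at -0.94. At 48 h all CCA members down to MIR5054-y in abundance passed (background 6.73%), MIR894-x by -0.61 ± 0.08 and the shared sequence as MIR8155-y by -0.76 ± 0.16. These tests say nothing of variation between plants, and at the common dispersion of the additive fit no entry of the table passed at either time.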

How the data were processed

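Small RNA reads of 18 nt or longer were screened by the authors against Rfam (11.0) and GenBank (209.0) to remove rRNA, snRNA, snoRNA and tRNA, with the rice genome, and then with miRBase release 21. Matches to precursors of other plants received names that begin with MIR. The sources used here do not give the aligner, the mismatches allowed or the meaning of the suffixes x, y and z. The authors deposited for each entry and library a read count, used here for all tests, and the same count divided by a library total as TPM. The deposited TPM columns are handled as a signal, because entries with the same sequence repeat reads and a column sums to more than TPM should. The authors wrote 0.01 TPM for entries without reads, here taken as 0.

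The library totals were computed back from counts and TPM. The members and lists were chosen with earlier results of these data known. Pairs of libraries were tested with edgeR 4.0.16 in R 4.3.3 (exactTest, dispersion 0, prior count 0.125) at the thresholds of the study, and line and time across 6 libraries with its quasi-likelihood test (TMM, default filter, Benjamini-Hochberg adjustment over all tested entries). DESeq2 1.42.0 was the second tool. Backgrounds count the tested entries with at least 5 reads. Named were the CCA members with at least 100 reads, the 10 other members with the most reads, called members whose larger library held 20 reads or more, and the members that the study chose for RT-PCR. MIR5059-x, MIR845-y, MIR5568-y, MIR5144-x, MIR2863-y, MIR6249-x, MIR5384-y, MIR8704-y, MIR1861-x and MIR1122-y were named after their values were seen. Data for P15-0/PC-0 were simulated with counting error alone. Among entries averaging at least 20 reads, the exact test found 44 of 44 that had a 4-fold change and 22 of 39 that had a 2-fold change. It called 1 of 312 left as they were. The simulated pair held no variation between libraries, so these rates are not those of the real calls. Tables used pandas 2.3.3, numpy 2.4.6 and scipy 1.17.1 in Python 3.11.15, and figures matplotlib 3.10.9.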

Additional observations from a re-analysis of the deposited data

Results flagged for a closer look

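For 8 members the change from 0 h differed between P15 and PC beyond counting error, after adjustment over all tested entries. The value is the log2 fold change in P15 minus that in PC with the library totals. At 6 h, where 8.93% of all tested entries passed, it was -1.27 for MIR8175-y, -1.04 for MIR5054-y, -1.16 for MIR160-x and -0.89 for MIR477-x. At 48 h, where 6.73% passed, it was -0.61 for MIR894-x, -0.68 for MIR5139-x, -0.75 for MIR1511-y, -0.76 for MIR8155-y, -0.94 for MIR8175-y and -1.0 for MIR5054-y, and the values of MIR5139-x, MIR1511-y and MIR8155-y are those of 1 sequence. All 6 of the CCA members with the most reads were thus lower at 48 h relative to 0 h in P15 than in PC. At the common dispersion of the additive fit no entry of the table passed at either time, and with TMM the differences of MIR5054-y, MIR160-x and MIR477-x at 6 h did not pass. With TMM the difference of MIR894-x at 6 h was 0.35 and passed, against 0.03 with the library totals.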

How the results depend on the processing

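No paired analysis was possible because each line and time has 1 library and no replicate numbers to pair. The additive fit compares the lines within each time. Of the 16 calls in pairs, 10 were kept with TMM, 11 with median-of-ratios, 13 with total clean reads, 10 at the common dispersion and 9 where the larger library had to hold 20 reads. Calls in P15-0/PC-0 numbered 0 at the common dispersion and 0 with at least 20 reads. P15-6/PC-6 had 0 calls with TMM, median-of-ratios or total clean reads. PC-6/PC-0 had 0 with TMM and at the common dispersion, and 1 with median-of-ratios or at least 20 reads. PC-48/PC-0 had 3 with median-of-ratios or at least 20 reads, and P15-6/P15-0 had 2 with TMM or median-of-ratios. P15-48/P15-0 had 1 at the common dispersion or with at least 20 reads, and 8 with total clean reads, among them MIR894-x (-1.0 on the log2 scale) and MIR8155-y (-1.31).

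In the additive fit, MIR6300-y was the 1 member called at 6 h with no filter on low counts (adjusted p 0.0138), without PC-48, without P15-48 and without both 48 h libraries, and its edgeR adjusted p lay between 0.00787 and 0.997 over the alternatives. At 48 h, 2 members were called with total clean reads and 1 with no filter, MIR8016-y. Leaving out each library in turn gave 0 to 1 calls at 6 h and 0 to 2 at 48 h (MIR8016-y, whose reads lie mainly in PC-48, and MIR3981-y). For the line, 0 members were called under every alternative run.

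Over all 9 CCA entries, the ratio of CCA to other reads was 7.54, 6.67 and 4.86 in P15 at 0, 6 and 48 h and 5.43, 3.40 and 5.56 in PC. At 20 reads or more it was 7.32 in P15-6, 6.05 in PC-0 and 6.24 in PC-48. At 18 nt alone it was 5.67 in P15-6, 4.37 in PC-0 and 3.06 in PC-6. Without the most abundant member of each class it was 5.23, 4.63 and 3.01 in P15 at 0, 6 and 48 h and 3.79, 2.81 and 3.37 in PC. With identical sequences taken a single time, an alternative chosen after seeing the data like those with MIR477-x or the 48 h libraries left out or on response differences, it was 5.52, 4.80 and 3.77 in P15 and 3.99, 2.54 and 4.27 in PC.

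The fold of the CCA sum over every entry was 1.54 for P15-0/PC-0, 0.790 for P15-48/PC-48 and 0.481 for P15-48/P15-0 with total clean reads. For P15-6/PC-6 it was 1.68 (TMM), 1.72 (median-of-ratios) and 1.74 (total clean reads), and for P15-6/P15-0 0.926, 0.886 and 0.835 in that order. For PC-48/PC-0 it was 1.13, 1.07 and 0.937, and for PC-6/PC-0 0.809 with TMM. P15-48/P15-0 was 0.663 with identical sequences taken a single time. The cause of these shifts was not tested. With 1 library per condition no interval covers variation between plants, and no alternative reversed a call.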
